A study of Homo sapiens with 6 samples.

Results

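The mitochondrial ribosomal proteins were examined as the gene symbols that begin with MRPL or MRPS followed by a number. The count tables list 76 such symbols among 23228 gene symbols, 47 with MRPL for the large subunit and 29 with MRPS for the small subunit. The rule uses names alone and no measured value, but the set was chosen with earlier results of these data known. The RNA-seq samples are MDA-MB-231 cells, an established line of triple negative breast cancer (TNBC). There were 3 samples of cells carrying a lentiviral non-targeted shRNA (control) and 3 samples of cells carrying a lentiviral shRNA against PELP1 (PELP1-KD), all kept in RPMI medium with 10% serum after puromycin selection. A single shRNA was used, and the labels do not say whether the 3 samples of a group came from separate selections or cultures. The p-values therefore measure the spread between these samples, which may be technical. The comparison asks how transcripts of the mitochondrial ribosome differ when PELP1, a coregulator of nuclear receptors that also acts in ribosome biogenesis, is reduced.

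The mitochondrial ribosome translates the few proteins that mitochondrial DNA encodes, which are core subunits of the oxidative phosphorylation complexes. Its rRNAs come from mitochondrial DNA, whereas all its proteins are encoded in the nucleus, made in the cytosol and imported. Some of these proteins have bacterial counterparts, and others were added during the evolution of mitochondria. The large subunit joins amino acids and the small subunit reads the mRNA. The symbols follow an older naming, so that MRPS18A and MRPS30 sit in the large subunit, and MRPS36 is now known as a component of the 2-oxoglutarate dehydrogenase complex.

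The samples held 17304864 to 23132102 counts on genes, and the members took 0.618%, 0.641% and 0.644% of them in the controls and 0.681%, 0.682% and 0.688% in PELP1-KD. Values are given as CPM, the count relative to a library size corrected by TMM. In such bulk RNA, fewer cells that express a gene and less of its RNA per cell cannot be told apart. PELP1 itself was at 57.2, 56.1 and 60.2 CPM in the controls and 28.6, 29.9 and 30.3 CPM in PELP1-KD, 48.9% lower (log2FC -0.97, SE 0.055, adjusted p = 1.48e-11). The two-sided exact permutation test gave p = 0.1 for PELP1, the smallest value that 3 against 3 samples allow. VIM and CD44, mesenchymal markers of the line, had mean levels of 2221 and 1209 CPM in the controls and 1922 and 828 CPM in PELP1-KD, and both were called lower (log2FC -0.21 and -0.55). Of the epithelial markers, the keratins KRT8 and KRT18 were at 284 and 281 CPM in the controls and were called lower as well (log2FC -0.13 and -0.21), EPCAM was at 9.47 CPM and not called, and CDH1 was near 0. CDH1 and the hormone receptors ESR1 and PGR stayed below 0.23 CPM in every sample, PECAM1 of endothelium below 0.34 CPM, and PTPRC of leukocytes at 0 counts. ERBB2, which TNBC is defined as not overexpressing, was counted at a mean of 113 CPM in the controls and was not called. The part of these markers in the members' values was not tested.

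Of the 76 members, 75 passed the filter on low counts, all 47 MRPL symbols and 28 of the 29 MRPS symbols. Called here means an adjusted p below 0.05 in the quasi-likelihood test of edgeR, with adjustment over all 12796 tested genes. Upon PELP1-KD, 5 MRPL symbols were lower and 13 higher, and 3 MRPS symbols were lower and 7 higher. Over all tested genes, 24.2% were called lower and 22.7% higher. Thus 10.7% of the tested members were called lower, a smaller share than among all tested genes, and 26.7% were called higher. The latter share depends on the fit. It was 40% with the replicate number as a block, beside 24.5% of all tested genes, and 52% with library totals alone as the scale, beside 29.8%. Without control 1, a sample that stood apart from the other controls, the counts were 5 lower and 14 higher for MRPL. For MRPS they were 3 lower and 6 higher. The share of all tested genes called was not taken for that fit.

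**Figure D1:**
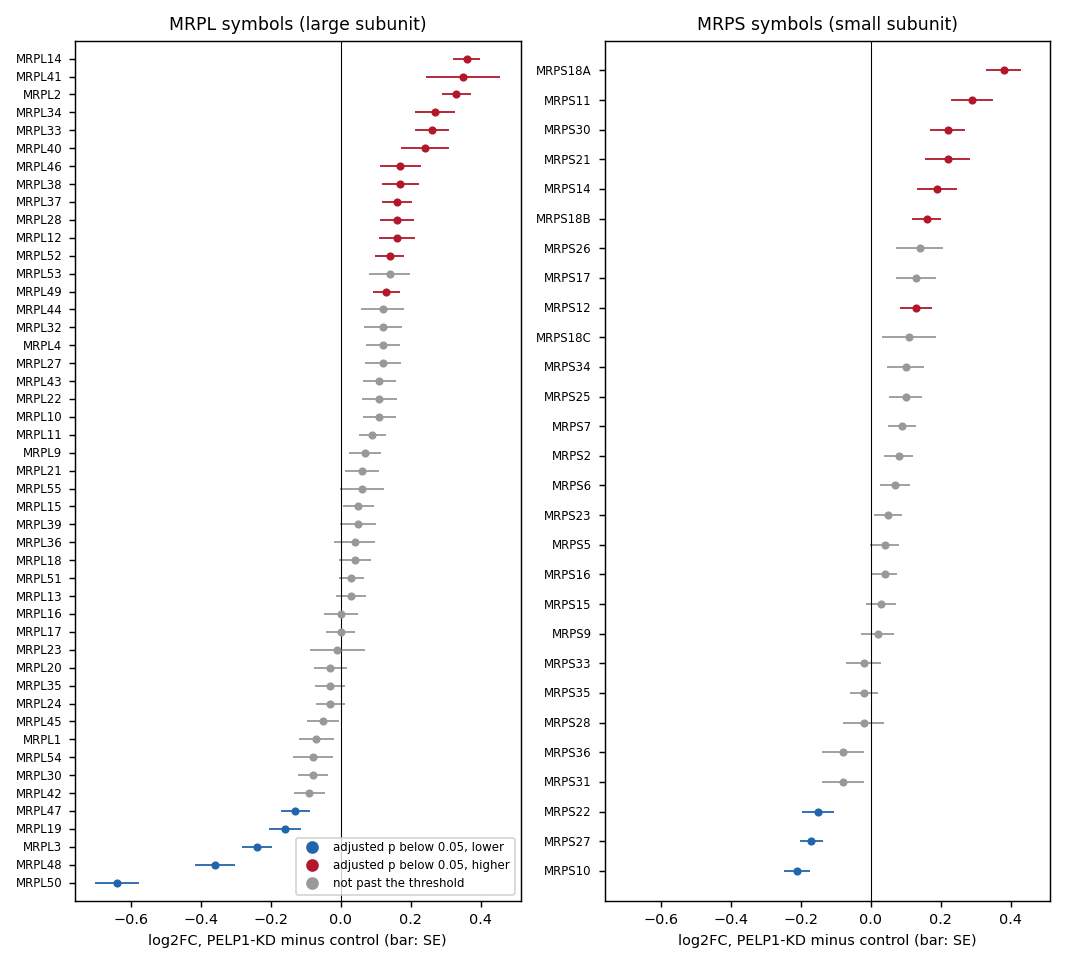
Log2 fold change of each of the 75 tested members, PELP1-KD minus control (x axis), with its standard error as a bar and 1 row per gene, MRPL symbols on the left and MRPS symbols on the right; blue marks members called lower and red those called higher. MRPL50 stands at -0.64, and the other 74 members lie between -0.36 and 0.38.

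The shifts were small. The median log2FC was 0.06 for the 47 MRPL symbols and 0.07 for the 28 tested MRPS symbols, beside 0.00 for all tested genes. Without control 1 the MRPS median was 0.04. A log2FC above 0 was seen for 31 MRPL and 20 MRPS symbols. MRPL50 was the single member called with a fold beyond 1.5, a size that 8.87% of all tested genes passed together with the call. The 3 values of one group lay entirely below those of the other for many members, as they did for 55.0% of all tested genes. PELP1-KD was below all controls for 6 MRPL and 4 MRPS symbols, and above all controls for 18 MRPL and 15 MRPS symbols. Over all tested genes, 28.0% had PELP1-KD entirely below and 27.0% entirely above the controls.

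Of the MRPL symbols 27.7% were called higher and 10.6% lower, and of the tested MRPS symbols 25% and 10.7%. When the proteins were grouped by where they sit, with MRPS18A and MRPS30 moved to the large subunit and MRPS36 set aside, 5 of 49 large subunit genes were lower and 15 higher, and 3 of 25 small subunit genes were lower and 5 higher, with a median log2FC of 0.07 in each. Proteins were also grouped by origin, which leaves out MRPS18A, MRPS30 and MRPS36. Proteins with bacterial counterparts had a median log2FC of 0.07, with 4 lower and 10 higher of 44 tested. Proteins listed as particular to mitochondria had a median of 0.08, with 4 lower and 8 higher of 28. Within the latter, 7 of 18 large subunit genes were higher and 2 lower, and 1 of 10 small subunit genes was higher and 2 were lower. That 1 gene was MRPS18B, which is itself a paralog of bacterial S18. Beside these counts, 24.2% of all tested genes were called lower and 22.7% higher. The share called higher was 22.7% for proteins with bacterial counterparts and 28.6% for those particular to mitochondria. No test was made of the difference between these groups.

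The summed level of all MRPL symbols was 4053, 4200 and 4206 CPM in controls 1 to 3 and 4337, 4334 and 4376 CPM in the PELP1-KD samples. Its mean was 4153 ± 86.7 CPM (SD, n = 3) in the controls and 4349 ± 23.4 CPM (SD, n = 3) in PELP1-KD, 4.72% higher. For the MRPS symbols, the sums were 2266, 2313 and 2328 CPM against 2369, 2366 and 2382 CPM, 3.04% higher. The groups did not overlap in either sum, and control 1 was the lowest sample in both. The ratio of the MRPL to the MRPS sum was 1.79, 1.82 and 1.81 in the controls and 1.83, 1.83 and 1.84 in PELP1-KD, again without overlap. That order depended on how the genes were weighted. With each gene weighted equally, the mean log2 CPM of MRPL exceeded that of MRPS by 0.17, 0.20 and 0.19 in the controls. In PELP1-KD it did so by 0.16, 0.17 and 0.17, so the groups overlapped and the difference pointed the other way. These sums and means follow the symbols, so MRPS18A, MRPS30 and MRPS36 count with MRPS. The balance by place in the particle was not taken in this way.

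**Figure D2:**
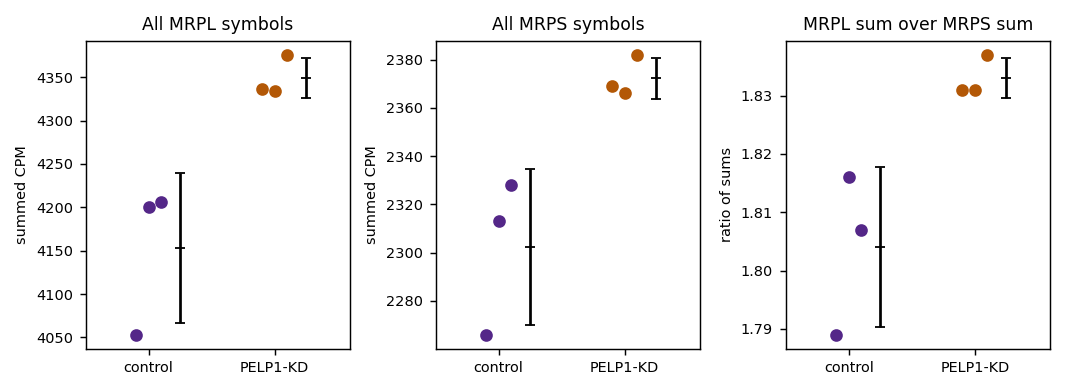
Summed CPM of all MRPL symbols (left), of all MRPS symbols (middle) and the ratio of the sums (right), with 1 point per sample and the mean ± SD (n = 3) as a bar beside the points; the axes do not start at 0. The 3 PELP1-KD samples lie above the 3 controls in each panel, with control 1 lowest.

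Among the large subunit genes that fell, MRPL50, which encodes a protein without a bacterial counterpart, changed the most. It was at 64.5, 56.4 and 60.04 CPM in the controls and 36.9, 36.8 and 42.1 CPM in PELP1-KD, 36.0% lower (log2FC -0.64, SE 0.062, adjusted p = 5.16e-08). Every PELP1-KD sample was below every control, and leaving out each sample in turn gave a log2FC between -0.71 and -0.59. MRPL48, another mitochondria-specific protein, which lies in the central protuberance of the large subunit, was at 40.4, 38.2 and 40.5 CPM against 30.8, 30.4 and 31.4 CPM (log2FC -0.36, SE 0.057, adjusted p = 2.97e-05). MRPL3, the counterpart of bacterial L3 close to the peptidyl transferase center, was at 145, 139.9 and 133 CPM in the controls and 122, 116 and 115 CPM in PELP1-KD (log2FC -0.24, SE 0.042, adjusted p = 7.27e-05). Neither pair of groups overlapped.

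MRPL19 and MRPL47 fell by less. MRPL19, the counterpart of bacterial L19 at the interface of the subunits, had 145, 136 and 132 CPM in the controls and 131, 119 and 121 CPM in PELP1-KD (log2FC -0.16, SE 0.045, adjusted p = 0.00625), and its lowest control stood close above its highest PELP1-KD sample. For MRPL47, the counterpart of bacterial L29 near the exit of the peptide tunnel, the values were 106, 101 and 107 CPM and 93.8, 94.9 and 98.4 CPM (log2FC -0.13, SE 0.042, adjusted p = 0.0179). The call of MRPL47 was lost without control 3, without PELP1-KD 1 and with library totals alone as the scale.

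Of the large subunit genes that rose, MRPL14 and MRPL2 lead by p. MRPL14, the counterpart of bacterial L14 on the side of the large subunit that faces the small subunit, rose from 152, 161 and 166 CPM to 199.6, 211 and 204 CPM (log2FC 0.36, SE 0.039, adjusted p = 1.98e-07). MRPL2, the counterpart of bacterial L2, which helps to join the subunits, was at 90.3, 95.8 and 96.5 CPM in the controls and 117, 118 and 120 CPM in PELP1-KD (log2FC 0.33, SE 0.041, adjusted p = 1.59e-06). In both genes the PELP1-KD samples were well clear of the controls, at 28.4% and 25.6% above them. MRPL33, which encodes one of the smallest proteins of the particle, was at 132, 133 and 129 CPM against 155, 144 and 172 CPM (log2FC 0.26, SE 0.049, adjusted p = 0.000187), with the wider spread in PELP1-KD. MRPL34, also small, was at 47.4, 56.1 and 55.4 CPM against 63.8, 64.6 and 63.1 CPM (log2FC 0.27, SE 0.057, adjusted p = 0.000696), with control 1 below the other controls. MRPL37, a mitochondria-specific protein, had 125, 138 and 141 CPM and 151, 152 and 148 CPM (log2FC 0.16, SE 0.043, adjusted p = 0.00593), and its log2FC was 0.10 without control 1.

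The other 8 MRPL symbols called higher were MRPL12, MRPL28, MRPL38, MRPL40, MRPL41, MRPL46, MRPL49 and MRPL52, with log2FC values between 0.13 and 0.35. MRPL41, a mitochondria-specific protein, shows how far a single sample can weigh. It was at 53.0, 84.8 and 89.7 CPM in the controls and 97.2, 98.4 and 95.3 CPM in PELP1-KD (log2FC 0.35, SE 0.106, adjusted p = 0.0109), and its log2FC was 0.15 without control 1, with the call kept. The calls of MRPL12, the stalk protein that also binds the mitochondrial RNA polymerase, and of MRPL28 were lost without control 1. The 29 MRPL symbols not called had log2FC values from -0.09 to 0.14, with standard errors of 0.035 to 0.079. MRPL41, MRPL12 and MRPL28 are named here beyond the fixed rule, after their values were seen.

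**Figure D3:**
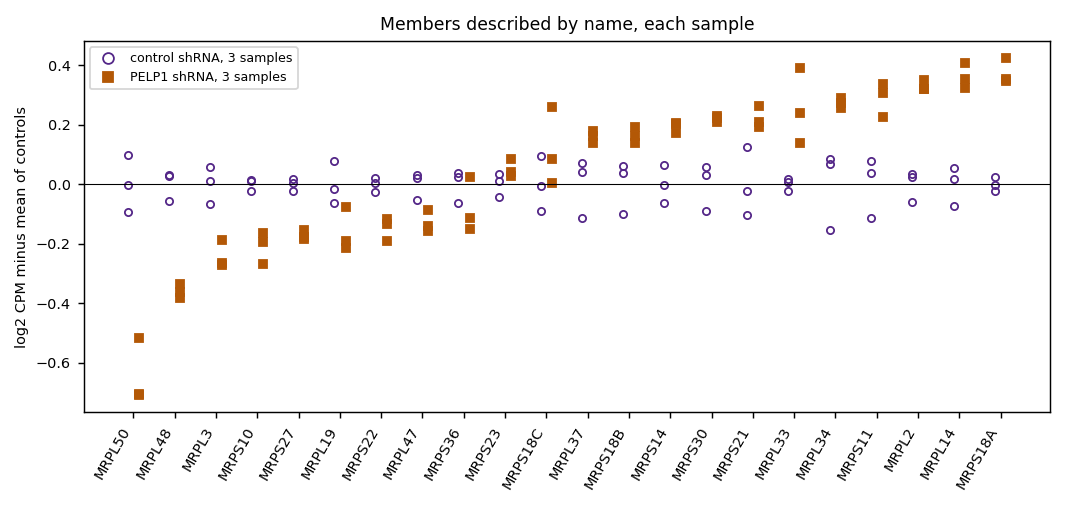
Log2 CPM of each sample minus the mean of the 3 controls (y axis) for 22 members described by name, ordered by log2FC from MRPL50 to MRPS18A; open circles are control samples and filled squares are PELP1-KD samples. The squares lie apart from the circles for all but MRPS36, MRPS23 and MRPS18C, which were not called.

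Among MRPS symbols, MRPS10, MRPS27 and MRPS22 fell. MRPS10, the counterpart of bacterial S10 in the head of the small subunit, was at 166, 162 and 167 CPM in the controls and 144, 137 and 147 CPM in PELP1-KD (log2FC -0.21, SE 0.038, adjusted p = 0.00014). MRPS27, a pentatricopeptide repeat protein particular to mitochondria, was at 211, 205 and 209 CPM against 183, 184 and 187 CPM (log2FC -0.17, SE 0.033, adjusted p = 0.00027), and the groups were apart at a decrease of 11.2%. MRPS22, also particular to mitochondria, was at 77.3, 75.8 and 78.3 CPM against 71.2, 67.6 and 70.4 CPM (log2FC -0.15, SE 0.045, adjusted p = 0.0118), and its call was lost with library totals alone.

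MRPS18A rose the most of the MRPS symbols, and its product belongs to the large subunit. It was at 50.3, 48.6 and 49.3 CPM in the controls and 62.8, 66.3 and 63.1 CPM in PELP1-KD, 29.8% higher (log2FC 0.38, SE 0.049, adjusted p = 2.47e-06). MRPS18A is one of 3 human paralogs of bacterial S18. MRPS18B, a paralog elsewhere in the small subunit, was at 161, 164 and 147 CPM against 179.9, 173 and 176 CPM (log2FC 0.16, SE 0.041, adjusted p = 0.00281). The paralog that takes the bacterial S18 position, MRPS18C, was at 22.7, 24.4 and 21.4 CPM against 27.3, 24.2 and 22.9 CPM (log2FC 0.11, SE 0.076, adjusted p = 0.25), with overlapping groups and no call. So 2 of the 3 paralogs were called higher, and no test of the difference between paralogs was made.

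MRPS30, whose product also sits in the large subunit, was at 54.2, 58.9 and 60.04 CPM in the controls and 67.3, 66.7 and 67.6 CPM in PELP1-KD (log2FC 0.22, SE 0.05, adjusted p = 0.00116). MRPS11, the counterpart of bacterial S11 on the platform of the small subunit, was at 37.6, 32.9 and 36.5 CPM against 41.7, 44.9 and 44.0 CPM (log2FC 0.29, SE 0.061, adjusted p = 0.000461). MRPS21, the counterpart of bacterial S21, had 30.2, 28.6 and 33.5 CPM and 36.8, 35.1 and 35.5 CPM (log2FC 0.22, SE 0.064, adjusted p = 0.00741), and its call was lost without control 2. In these 3 genes, all PELP1-KD samples lay above all controls. MRPS14, the counterpart of bacterial S14, was at 33.8, 37.0 and 35.3 CPM against 40.6, 39.8 and 40.8 CPM (log2FC 0.19, SE 0.056, adjusted p = 0.00909). MRPS12, the counterpart of bacterial S12 in the decoding center, was the remaining MRPS symbol called higher, with a log2FC of 0.13, and its call was lost without control 1, without PELP1-KD 1 and without PELP1-KD 2. MRPS36 of the 2-oxoglutarate dehydrogenase complex was at 40.7, 40.3 and 37.9 CPM against 35.7, 36.6 and 40.3 CPM and was not called (log2FC -0.08, SE 0.06, adjusted p = 0.309).

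The 18 tested MRPS symbols not called had log2FC values from -0.08 to 0.14. MRPS24 was the member that did not pass the filter, with 2, 3 and 1 counts in the controls and 9, 3 and 4 counts in PELP1-KD. The floor of 3 counts corresponds to 0.13 to 0.173 CPM, the controls were at or under it, and no fold change is given. Its neighbour URGCP was counted at 786 to 1154 reads per sample, and the readthrough gene that joins both was listed at 0. Reads that were ambiguous between genes, 0.657% to 0.688% of the counting totals, were also placed on no gene. Their part in the low count of MRPS24, which has 0 annotated pseudogenes, was not tested. Alignments marked as not unique made up 32.5% to 32.9% of the counting totals and were placed on no gene. The share of reads this stands for is not known. Of the 76 members, 33 have at least 1 annotated pseudogene, so members with near-identical copies are counted low by an unknown amount.

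Levels between genes were compared per length, as RPKM, with the length of a representative transcript of GENCODE release 29. The median control level was 90.4 RPKM over the MRPL symbols and 64.3 RPKM over the tested MRPS symbols. MRPL33 stood highest at 324 ± 4.88 RPKM (SD, n = 3) in the controls, followed by MRPL51 at 309.8 ± 4.82 RPKM. MRPL50, the member that fell most, was also the lowest of the MRPL symbols at 18.1 RPKM in the controls, just under MRPL22 at 21.8 RPKM. Among MRPS symbols, MRPS23 was highest at 192 RPKM and MRPS14 lowest at 16.7 RPKM. MRPS23 itself was not called, at 114, 112 and 108 CPM against 113, 118 and 115 CPM (log2FC 0.05, SE 0.04, adjusted p = 0.312). The order depends on the transcript chosen. With the length of all exons joined, MRPL12 and MRPS34 came out highest, at 189 and 86.9 RPKM, and MRPL46 and MRPS18C lowest, at 4.73 and 4.69 RPKM.

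**Figure D4:**
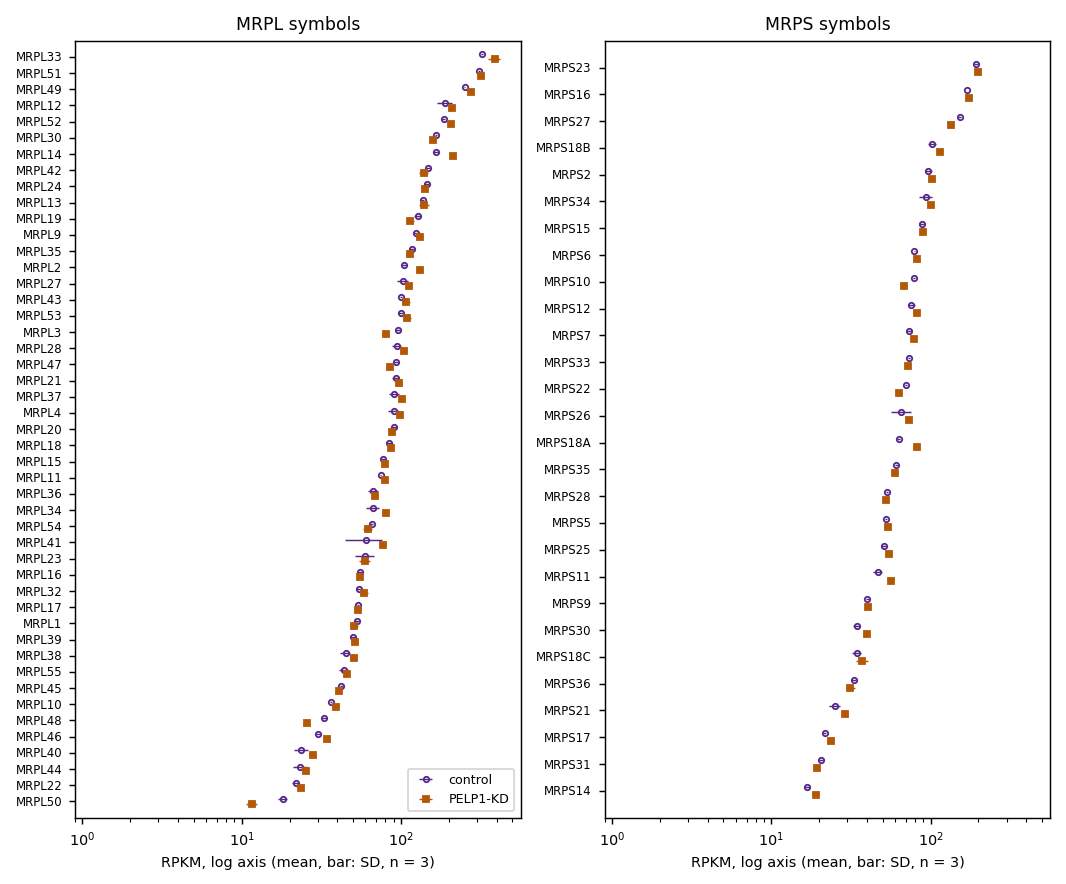
Level per length of each of the 75 tested members (RPKM on a log axis), as the mean of 3 samples with the SD as a bar, ordered by the control level; open circles are controls and filled squares PELP1-KD. MRPL33 and MRPS23 are at the top of their panels, and MRPL50 and MRPS14 are at the bottom.

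The promoters of the members share short words that the choice by symbol did not use. ETS factors such as GABP, YY1 and nuclear respiratory factor 1 are known regulators of nuclear genes for mitochondrial proteins. RefSeq promoters on GRCh38.p14, 250 bases before to 50 bases after the start of transcription, were matched for 67 of the 76 members. The words searched on both strands were CCGGAAG for ETS factors, ATGGCGG for YY1, CATGCGC for nuclear respiratory factor 1, GGGCGGG for SP1 and the E-box CACGTG, which is bound by MYC and related factors. The E-box is its own reverse complement, the ETS and YY1 words can each overlap their own reverse complements, and the SP1 word can overlap the YY1 word. The ETS word was in 28 member promoters (41.8%), against 10.7% of all 27305 promoters and 19.4% of the promoters of tested genes. The YY1 word was in 23 (34.3%), against 5.72% and 10.5%. The E-box was in 6 (8.96%), against 7.44% and 10.1%, the nuclear respiratory factor 1 word in 7 (10.4%), against 4.67% and 7.67%, and the SP1 word in 34 (50.7%), against 32.9% and 55.0%. At least 1 of the ETS and YY1 words stood in 45 member promoters, and both stood in 6.

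ETS words lay between 222 bases before and 7 bases after the start, and YY1 words between 224 bases before and 38 bases after it. ETS words had a median position of 22 bases before the start, with 26 of 37 within the 100 bases before it, and 19 of 24 YY1 words lay after the start, at a median of 14 bases. The letters of the YY1 word also spell a start codon and an alanine codon, so a match after the start may be coding sequence. The ETS, YY1 and SP1 words were found in members that fell and in members that rose. Of 34 members with the SP1 word, 3 were called lower and 9 higher. The E-box and the nuclear respiratory factor 1 word were in only 6 and 7 members, of which 2 each were called higher and 0 lower. Over all tested genes 24.2% were called lower and 22.7% higher, and counts this small cannot be told from those shares. Windows of 30 bases on GRCh38.p14, read 5′ to 3′ along the gene's strand, are shown for MRPS10 and MRPL50, which fell, and for MRPS18A and MRPS18B, which rose, with the ETS or YY1 word in capitals.
MRPS10, ETS word, chr6:42217865-42217894, - strand: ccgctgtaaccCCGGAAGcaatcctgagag
MRPS10, YY1 word, chr6:42217831-42217860, - strand: ggaccggcaagATGGCGGcgcggacagcgt
MRPS18A, ETS word, chr6:43687804-43687833, - strand: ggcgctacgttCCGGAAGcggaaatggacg
MRPS18A, YY1 word, chr6:43687761-43687790, - strand: ggtttttgaagATGGCGGccctcaaggctc
MRPL50, YY1 word, chr9:101398574-101398603, - strand: tctcatcgaagATGGCGGcgcgatctgtgt
MRPS18B, YY1 word, chr6:30617855-30617884, + strand: cgtacgtcaagATGGCGGcgtctgtattaa
MRPS10 and MRPS18A each hold both words in the same order, and moved in opposite directions. The ETS word lies 22 bases before the start in MRPS10 and 31 bases before it in MRPS18A, and the YY1 word lies 12 bases after it in both. Members with the ETS word had a median log2FC of 0.08, as had those without it, and of these 28 members 5 were called lower and 8 higher, a total share near the 46.9% of all tested genes. With the YY1 word the median was 0.09 and without it 0.08, with 4 called lower and 8 higher. A match of letters is a description and does not show binding.

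Several members start close to a gene on the opposite strand. For 18 members the start of a tested neighbour lay head to head within 1000 bases, at distances of 45 to 990 bases. MRPL46 and MRPS11 are partners of each other, so they count from each side in all the counts that follow. Of the 18 partners, 9 were called, beside 46.9% of all tested genes. The log2FC of member and partner had the same sign in 10 of the 18. Both genes were called in 5, of which 4 had the same direction. MRPL14 rose with TMEM63B, whose log2FC was 0.27 (SE 0.057, adjusted p = 0.00062), and MRPL37 rose with CYB5RL (log2FC 0.27, SE 0.106, adjusted p = 0.0396). MRPS12 rose while SARS2, the mitochondrial seryl-tRNA synthetase, fell (log2FC -0.26, SE 0.069, adjusted p = 0.00353). ZNF189, head to head with MRPL50 across 233 bases, was not called, with a log2FC of -0.04 (SE 0.109).

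MRPL46 and MRPS11 are the pair in which both genes are members, 1 from each subunit, with starts 320 bases apart. MRPL46, a mitochondria-specific protein, was at 29.98, 31.5 and 29.9 CPM in the controls and 34.4, 33.6 and 34.8 CPM in PELP1-KD (log2FC 0.17, SE 0.058, adjusted p = 0.0216), and its call was lost without control 3, without PELP1-KD 1, without PELP1-KD 3 and in DESeq2. Both genes had all PELP1-KD samples above all controls. The stretch of 181 bases that lies in both promoter windows is shown because both genes start from its flanks, and it holds none of the 5 words.
MRPS11 and MRPL46, GRCh38.p14, chr15:88467458-88467638, + strand: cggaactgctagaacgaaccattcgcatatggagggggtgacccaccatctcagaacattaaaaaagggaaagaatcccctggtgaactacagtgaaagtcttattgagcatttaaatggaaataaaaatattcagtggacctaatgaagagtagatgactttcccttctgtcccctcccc

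The 3 members with the largest log2FC but for MRPL41, namely MRPS18A, MRPL14 and MRPL2, lie near each other on chromosome 6. Between MRPL2 and MRPL14 there are 16 tested genes that are not members, of which 8 were called higher, 3 lower and 5 not called, with a median log2FC of 0.07. Beside these counts, 22.7% of all tested genes were called higher and 24.2% lower. MRPS10, with 13 tested genes between it and MRPL2, fell. Across the 75 members, the log2FC had a correlation of 0.38 (Pearson) and 0.45 (Spearman) with the median log2FC of the 20 nearest tested genes, beside 0.21 and 0.28 over 12374 tested genes. For the MRPL symbols alone it was 0.48 and 0.57, and for the MRPS symbols 0.21 and 0.18. The points share the same 6 libraries, and this is a description across genes.

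Base composition moved with the fold changes. Across the 75 members, log2FC had a correlation of 0.53 (Pearson) and 0.54 (Spearman) with the GC content of the representative transcript, beside 0.24 and 0.34 over 12286 tested genes, and genes of the same libraries are not independent replicates. The median GC content was 45.1% for the 8 members that fell and 58.0% for the 20 that rose. Over all tested genes it was 44.8% for those that fell and 55.2% for those that rose. GC content also moved with samples inside a group. Per 10 points of GC content, log2 CPM deviated by -0.09 in control 1, 0.04 in control 2 and 0.05 in control 3, and by -0.03, 0.06 and -0.03 in the PELP1-KD samples, each from the mean of its group. The difference between the groups was 0.12, and 0.09 without control 1. The part of base composition in the fold changes was not tested.

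When the running median log2FC of tested genes of like GC content was subtracted, an alternative chosen after the data were seen, the median log2FC was 0.06 for MRPL and 0.04 for MRPS. Of the 20 members called higher, 9 moved nearer to 0 by more than 1.5 times, and so did 3 of the 8 called lower. MRPL50 was then at -0.45, MRPL14 at 0.30, MRPS18A at 0.28 and MRPL2 at 0.25. MRPL33, whose transcript has a GC content of 40.6%, went from 0.26 to 0.36. MRPL41, with a GC content of 72.0%, went from 0.35 to 0.16. MRPS12 went from 0.13 to -0.01, and MRPL47 from -0.13 to a value that rounds to 0.

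**Figure D5:**
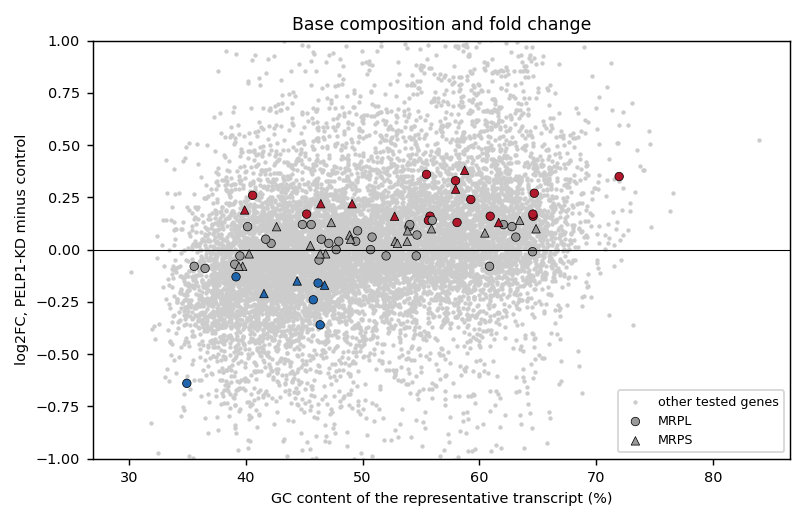
GC content of the representative transcript (x axis, %) and log2FC, PELP1-KD minus control (y axis), for 12286 tested genes in grey and the 75 members on top, circles for MRPL and triangles for MRPS, blue for called lower, red for called higher and grey for not called. The y axis ends at -1 and 1, which leaves 395 genes outside; MRPL50 stands at the lower left and MRPL41 at the right.

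Other genes of mitochondrial translation were taken as lists, whose counts stand beside 24.2% called lower and 22.7% called higher over all tested genes. Of 3 large subunit proteins under other symbols, MRP63 rose (log2FC 0.15, adjusted p = 0.0124), as did GADD45GIP1 (log2FC 0.19, adjusted p = 0.0285). GADD45GIP1 was at 89.6, 118 and 119.7 CPM in the controls and 123, 129 and 124 CPM in PELP1-KD, and its call was lost without control 1, in DESeq2 and without any of the PELP1-KD samples. ICT1, a peptidyl-tRNA hydrolase built into the large subunit, was not called. Of 4 small subunit proteins under other symbols, CHCHD1 rose (log2FC 0.24, SE 0.047, adjusted p = 0.000252), and DAP3, which binds GTP, PTCD3 and AURKAIP1 were not called, with log2FC values of -0.07, -0.01 and 0.03. With these added, the large subunit had 5 lower and 15 higher of 50 genes and the small subunit 3 lower and 8 higher of 32.

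Among 16 translation factors, 4 were lower (25%) and 4 higher (25%), with a median log2FC of 0.05. GUF1, the mitochondrial homolog of the elongation factor LepA, fell from 96.3, 90.2 and 89.8 CPM to 74.9, 72.8 and 75.8 CPM (log2FC -0.30, SE 0.045, adjusted p = 1.23e-05), and SLIRP, which stabilizes mitochondrial mRNAs, rose from 89.8, 99.8 and 105 CPM to 117, 120 and 122 CPM (log2FC 0.28, SE 0.049, adjusted p = 6.7e-05). Among 27 assembly factors, 3 were lower (11.1%) and 7 higher (25.9%), with a median of 0.04. TRUB2, a pseudouridine synthase of mitochondrial RNA, fell (log2FC -0.53, SE 0.059, adjusted p = 2.99e-07), and YBEY, an endoribonuclease needed for the small subunit, rose (log2FC 0.43, SE 0.086, adjusted p = 0.000335). Of 16 genes that maintain or transcribe mitochondrial DNA or process its RNA, 1 was lower (6.25%) and 8 were higher (50.0%), with a median of 0.11. There ELAC2, which cuts the 3′ ends of tRNAs, fell (log2FC -0.11, SE 0.034, adjusted p = 0.00852), a call lost with library totals alone and without PELP1-KD 1. KIAA0391, the nuclease of mitochondrial RNase P, rose (log2FC 0.25, SE 0.052, adjusted p = 0.000489). Of the 8 called higher, KIAA0391, HSD17B10, POLG2 and POLG kept the call under every alternative. The calls of POLRMT, SSBP1, MTPAP and PNPT1 were each lost under at least 1. The 15 genes encoded in mitochondrial DNA itself are not analysed here.

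Among 12 transcription regulators of mitochondrial genes, 5 were lower (41.7%) and 3 higher (25%), where the same shares of all tested genes were 24.2% and 22.7%. GABPA, the DNA-binding subunit of the ETS factor GABP, was at 30.3, 28.7 and 29.1 CPM in the controls and 19.8, 18.8 and 19.3 CPM in PELP1-KD, 34.4% lower (log2FC -0.61, SE 0.065, adjusted p = 1.86e-07). Its partner GABPB1 was not called (log2FC -0.01, SE 0.051). SP1 was at 117, 106 and 105 CPM against 93.8, 88.5 and 88.1 CPM (log2FC -0.28, SE 0.047, adjusted p = 7.44e-05), and kept its call under every alternative. YY1 was at 127, 127 and 123 CPM against 118, 114 and 121 CPM (log2FC -0.10, SE 0.039, adjusted p = 0.0469), a call that was lost with RLE size factors, with library totals alone, in DESeq2, without the filter on low counts and on leaving out any sample but control 3. ESRRA, an orphan nuclear receptor of mitochondrial genes, was at 47.7, 56.8 and 53.5 CPM against 72.7, 77.5 and 74.4 CPM (log2FC 0.50, SE 0.057, adjusted p = 3.65e-07). Its groups were as clearly apart as those of GABPA, in the opposite direction. NRF1, nuclear respiratory factor 1, was at 35.1, 33.2 and 36.5 CPM against 36.3, 32.8 and 34.0 CPM (log2FC -0.02, SE 0.061, adjusted p = 0.795), with overlapping groups. MYC was at 203, 211 and 210.4 CPM against 219, 229 and 216 CPM (log2FC 0.09, SE 0.035, adjusted p = 0.0376), a call that was lost in DESeq2 and on leaving out any sample but PELP1-KD 3.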

How the data were processed

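RNA-seq covered 3 control shRNA and 3 PELP1-KD samples of MDA-MB-231 cells. Total RNA went through a stranded poly(A) library preparation and single reads of 50 bases were taken on an Illumina HiSeq instrument. Raw read counts by gene symbol were deposited by the authors for each sample and carry no scaling. The submitters' processing notes name bcl2fastq, TopHat2, SAMtools, HTSeq and hg19. The annotation and the strand setting of the counting are not given in the sources used here, and overlapping genes cannot be told apart where strand was not used. The closing totals of reads placed on no gene stayed out of library sizes. The authors used DESeq2.

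Members and gene lists were chosen with earlier results of these data known. The large and small subunits, bacterial or mitochondrial origin and the other lists were written from general knowledge. Genes passing filterByExpr of edgeR 4.0.16 (minimum count 10) were tested in R 4.3.3 by the quasi-likelihood test on 2 groups, with TMM scaling and Benjamini-Hochberg adjustment over 12796 genes. Each SE is the ratio of log2FC to the root of F. Log2 CPM used a prior count of 2. The script was tested on simulated data. Floors of 3 counts cover counting error only, since reads carry no molecular identifiers. No 2 replicates agreed within sampling noise, since their chi-square statistics over genes were 1.46 to 4.07 times the degrees of freedom. The factor was 3.84 and 4.07 between control 1 and the other controls and 1.46 between those. It was 2.75 and 2.71 between PELP1-KD 2 and the other PELP1-KD samples and 1.51 between those.

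Transcript lengths and GC content come from GENCODE release 29, and the representative transcript is the basic protein-coding transcript of middle length. Gene order comes from RefSeq on GRCh38.p14, of which no gene coordinates are printed because the counts were made on hg19. Promoter sequences are from RefSeq on GRCh38.p14.

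Members were named by a rule. In each of MRPL and MRPS these were the 5 lowest p in each direction among those called, the highest and lowest level per length, any called member beyond 1.5-fold, any member not tested, and MRPS18A, MRPS18B, MRPS18C, MRPS30 and MRPS36. In each other list it was the called gene with the lowest p in each direction, with PELP1, MYC, NRF1 and GABPA always given. Other genes named were chosen after their values were seen. Alternatives were RLE size factors, library totals alone, DESeq2 1.42.0, limma 3.58.1 with voom, no filter, 10 counts in every sample, the replicate number as a block and leaving out each sample. Python 3.11.15 made the summaries.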

Additional observations from a re-analysis of the deposited data

How the results depend on the processing

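Scaling by library totals alone changed the counts most. It gave 23 MRPL and 16 MRPS symbols called higher, raised the median log2FC to 0.11 and 0.12, and over all tested genes called 18.9% lower and 29.8% higher. The TMM factors that this setting leaves out were 0.9776 to 0.9865 in the controls and 1.016 to 1.018 in PELP1-KD. Leaving them out moves the log2FC of every gene upward, and that of PELP1 itself went from -0.97 to -0.92. With the replicate block, 11 MRPS symbols were called higher, beside 19 MRPL symbols, and 24.5% of all tested genes were called higher. Under both settings the members' share called higher lay further above that of all tested genes, at 52% and 40%. The numbers share no more than a name. The deviations of same-numbered samples had correlations of 0.04, 0.07 and -0.08. Leaving out each sample in turn gave a median log2FC of 0.055 to 0.086 for MRPL and 0.042 to 0.077 for MRPS, lowest for MRPS without control 1. The MRPS median was 0.059 with the members under other symbols and 0.039 after subtraction of the running median over GC content. The log2 ratio of the MRPL to the MRPS sum differed by 0.023 between PELP1-KD and control, and by -0.015 when taken from mean log2 CPM. The cause of the changes under the other settings was not tested.

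The alternatives that refit the test gave 286 values for 22 named members. Of these, 280 kept their direction and their side of the threshold, and none changed direction. The subtraction over GC content is not among these refits and gives no calls. After it, MRPS36 went from -0.08 to 0.04 and MRPL47 from -0.13 to a value that rounds to 0. Under every refit, 6 of the 8 members called lower and 10 of the 20 called higher kept their call. DESeq2 called 8 lower and 17 higher, without MRPL12, MRPL41 and MRPL46. The share of all tested genes that DESeq2 called was not taken, so these counts have none to stand beside. MRPS24, with 1 to 9 counts per sample, was too low to be tested, and the cause of its low count was not tested.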
